A study of Rattus norvegicus with 12 samples.

Results

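The 6 genes described here are the mitochondrially encoded subunits of respiratory complexes III, IV and V, measured in deep and superficial CA1 of epileptic and control rats. They are the cytochrome c oxidase subunits Mt-co1 (ENSRNOG00000034234), Mt-co2 (ENSRNOG00000030371) and Mt-co3 (ENSRNOG00000030700), the ATP synthase subunits Mt-atp6 (ENSRNOG00000031979) and Mt-atp8 (ENSRNOG00000033299), and cytochrome b, Mt-cyb (ENSRNOG00000031766). They were taken by these identifiers, with no threshold on a measured value. All 6 of the 6 had a row among the 32662 identifiers of each table, and all 6 were among the 14791 that passed the filter on low counts. The tables give identifiers without symbols or lengths. Levels are therefore compared between libraries and not between genes.

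Mitochondrial DNA is transcribed into long precursor RNAs that are cut into separate messengers, largely at the transfer RNAs lying between the genes. RNA of all 6 genes comes from precursors of the same strand, so the 6 genes are not independent readouts. The word transcript is used below for the reads counted for each gene, which need not be a separate messenger. Complex III passes electrons from ubiquinol to cytochrome c and complex IV passes them on to oxygen, and both move protons across the inner mitochondrial membrane. Complex V lets the protons flow back and makes ATP, on which the ion pumps of firing neurons draw. Each of these complexes also holds subunits encoded in the nucleus.

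CA1 is the hippocampal field whose pyramidal cells lie in a deep sublayer, towards the stratum oriens, and a superficial sublayer, towards the stratum radiatum. Cell bodies of each sublayer were laser-microdissected from 20 µm sections of male Wistar rats, labelled as adults of 45 to 50 days and 180 to 200 g. The 4 groups were superficial CA1 of epileptic rats, superficial CA1 of control rats, deep CA1 of epileptic rats and deep CA1 of control rats, with 3 libraries each. Epileptic rats had received 5 mg/kg kainate, a glutamate receptor agonist, by repeated intraperitoneal injection until status epilepticus, and were taken 6 to 8 weeks afterwards. Status lasted over 30 min, and 4 mg/kg diazepam, a drug that ends seizures, was given after it. Control rats had received vehicle, labelled as saline or DMSO, in place of kainate. No diazepam dose and no matching interval in weeks are recorded for the control libraries. Replicate numbers 1, 2 and 3 were read as the animals of each condition, so that the 12 libraries come from 6 rats.

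Gene counts per library were 20623196 to 25893962 in epileptic and 16135358 to 19550582 in control rats. The most abundant identifier, ENSRNOG00000043866, held 11.0 to 22.8% of gene counts in epileptic and 8.25 to 12.97% in control libraries. Alignments outside annotated exons were 22.3 to 43.0% of all tallied alignments in epileptic and 35.8 to 44.0% in control libraries. Within the epileptic rats that share was 43.0% (deep) and 37.7% (superficial) in animal 1, and 22.3 to 26.7% in the 4 libraries of animals 2 and 3. The labelled cell types could not be checked against markers, which were not analysed here. In microdissected tissue, fewer cells of a type and less RNA per cell cannot be told apart.

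Levels are given as CPM, read counts scaled to a common library size by TMM, a method that sets the bulk of identifiers equal between libraries. By number of reads, uncorrected for gene length, Mt-co1 ranked 3 to 5 among all identifiers, with 98716 to 205318 counts per library. Mt-co2, Mt-co3, Mt-atp6 and Mt-cyb ranked 6 to 31. Mt-atp8 ranked 3487 to 5832, with 569 to 968 counts. In the rat its short reading frame overlaps that of Mt-atp6, and no source used here states how reads in the overlap were counted, or whether polyadenylated RNA was selected.

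All 6 transcripts were lower in superficial than in deep CA1. In epileptic rats 6 of 6 fell past the test, against 5.00% of the 14791 identifiers called lower there. In control rats 5 of 6 were called lower, against 4.18%. Mt-co2 was the exception, lower there but not called. These 5 were called in both conditions, as were 2.36% of all identifiers. The members' median log2 difference (superficial minus deep) was −0.36 in epileptic and −0.25 in control rats, beside medians of 0.015 and 0.008 over all identifiers. Calls rest on edgeR's quasi-likelihood test of the within-animal difference, with a Benjamini-Hochberg adjusted p below 0.05.

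The 3 members of complex IV form the catalytic core of the oxidase. Mt-co1, the subunit that binds heme a and reduces oxygen, had 5884, 8033 and 6011 CPM in superficial CA1 of epileptic animals 1, 2 and 3, against 7330, 9884 and 8862 CPM in their deep CA1. In control animals it had 5458, 6047 and 5302 CPM in superficial and 6598, 6975 and 6288 CPM in deep CA1. Every superficial library thus lay below the deep library of its own animal, while superficial epileptic and deep control libraries overlapped. Mt-co1 fell by 23.8% in superficial relative to deep CA1 of epileptic rats (log2 −0.39, SE 0.05, adjusted p = 0.000407). It fell by 15.4% in control rats (log2 −0.24, SE 0.05, adjusted p = 0.0118).

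Mt-co2, the subunit that accepts electrons from cytochrome c, had 1974, 2861 and 1846 CPM in superficial CA1 of epileptic animals 1 to 3, against 2427, 3385 and 2732 CPM in deep CA1. In control animals it had 1576, 1751 and 1570 CPM in superficial and 1866, 1832 and 1825 CPM in deep CA1. The sublayers were nearly level in control animal 2, with a log2 difference of −0.0651. Mt-co2 fell in superficial CA1 of epileptic rats (log2 −0.37, SE 0.06, adjusted p = 0.00135). In control rats the value was −0.18 (SE 0.06), which did not pass the test (adjusted p = 0.0909). There it stayed uncalled in 10 of 14 alternatives. In edgeR it passed with control libraries alone (adjusted p = 0.00438, beside 8.30% of identifiers called lower) and with no filter (0.00592, beside 3.66%). It also passed without epileptic animal 1 (0.0340, beside 6.32%) or animal 3 (0.00872, beside 6.82%).

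Mt-co3, a structural core subunit of the oxidase, had 2081, 2878 and 2577 CPM in superficial CA1 of epileptic animals 1 to 3, against 2828, 3507 and 3622 CPM in deep CA1. In control animals it had 2137, 2329 and 2165 CPM in superficial and 2588, 2870 and 2591 CPM in deep CA1. Control animals differed little in it, with log2 differences of −0.301 to −0.259. Mt-co3 fell in superficial CA1 in both conditions, by 0.41 in epileptic rats (SE 0.05, adjusted p = 0.000155) and by 0.28 in control rats (SE 0.05, adjusted p = 0.00277), on the log2 scale.

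The 2 members of complex V belong to the membrane part of ATP synthase, where Mt-atp6 lines the proton path and Mt-atp8 is a small subunit beside it. Mt-atp6 had 1823, 2539 and 2317 CPM in superficial CA1 of epileptic animals 1 to 3, against 1912, 2946 and 3398 CPM in deep CA1. In control animals it had 1968, 2069 and 2142 CPM in superficial and 2387, 2591 and 2404 CPM in deep CA1. Epileptic animals ranged widely in its sublayer difference, from −0.0689 in animal 1 to −0.552 in animal 3 on the log2 scale. Mt-atp6 fell in superficial CA1 of epileptic rats (log2 −0.28, SE 0.07, adjusted p = 0.0238) and of control rats (log2 −0.26, SE 0.07, adjusted p = 0.0380). DESeq2 called it in neither (adjusted p = 0.254 in epileptic and 0.304 in control rats), nor did limma-voom treating animals as random (0.124 and 0.170). In epileptic rats the edgeR call was also lost without epileptic animal 2 (log2 −0.31, adjusted p = 0.0840) or animal 3 (log2 −0.14, adjusted p = 0.0910). The same held with library totals in place of TMM (log2 −0.195, adjusted p = 0.0533) and in epileptic libraries alone (log2 −0.294, adjusted p = 0.0659). In control rats it was lost without epileptic animal 2 (adjusted p = 0.0588), and without control animal 1, 2 or 3 (adjusted p = 0.201, 0.291 and 0.111).

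Mt-atp8 had 26.4, 39.2 and 37.2 CPM in superficial CA1 of epileptic animals 1 to 3, against 33.4, 46.4 and 52.2 CPM in deep CA1. In control animals it had 28.6, 31.6 and 37.0 CPM in superficial and 38.4, 44.1 and 47.4 CPM in deep CA1. It was the member with the largest fitted difference in control rats, at log2 −0.42 (SE 0.07, adjusted p = 0.00127). In epileptic rats it fell by 0.36 (SE 0.07, adjusted p = 0.00336). Mt-atp8 had 1.45 to 1.97 counts per 100 counts of Mt-atp6 over the 12 libraries. As the reading frames overlap, this ratio does not give the level of a separate Mt-atp8 messenger.

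Mt-cyb, the complex III subunit that carries both quinone sites and b hemes, had 1993, 2431 and 2070 CPM in superficial CA1 of epileptic animals 1 to 3, against 2420, 2726 and 2824 CPM in deep CA1. In control animals it had 2020, 2187 and 2161 CPM in superficial and 2386, 2379 and 2489 CPM in deep CA1. Its highest superficial control library, at 2187 CPM, lay below its lowest deep control library, at 2379 CPM. In epileptic rats the sublayers overlapped (2431 CPM against 2420 CPM). The share of all identifiers without overlap between sublayers was not computed. Mt-cyb fell in superficial CA1 by 0.30 in epileptic rats (SE 0.05, adjusted p = 0.00306) and by 0.19 in control rats (SE 0.05, adjusted p = 0.0446), on the log2 scale.

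**Figure D1:**
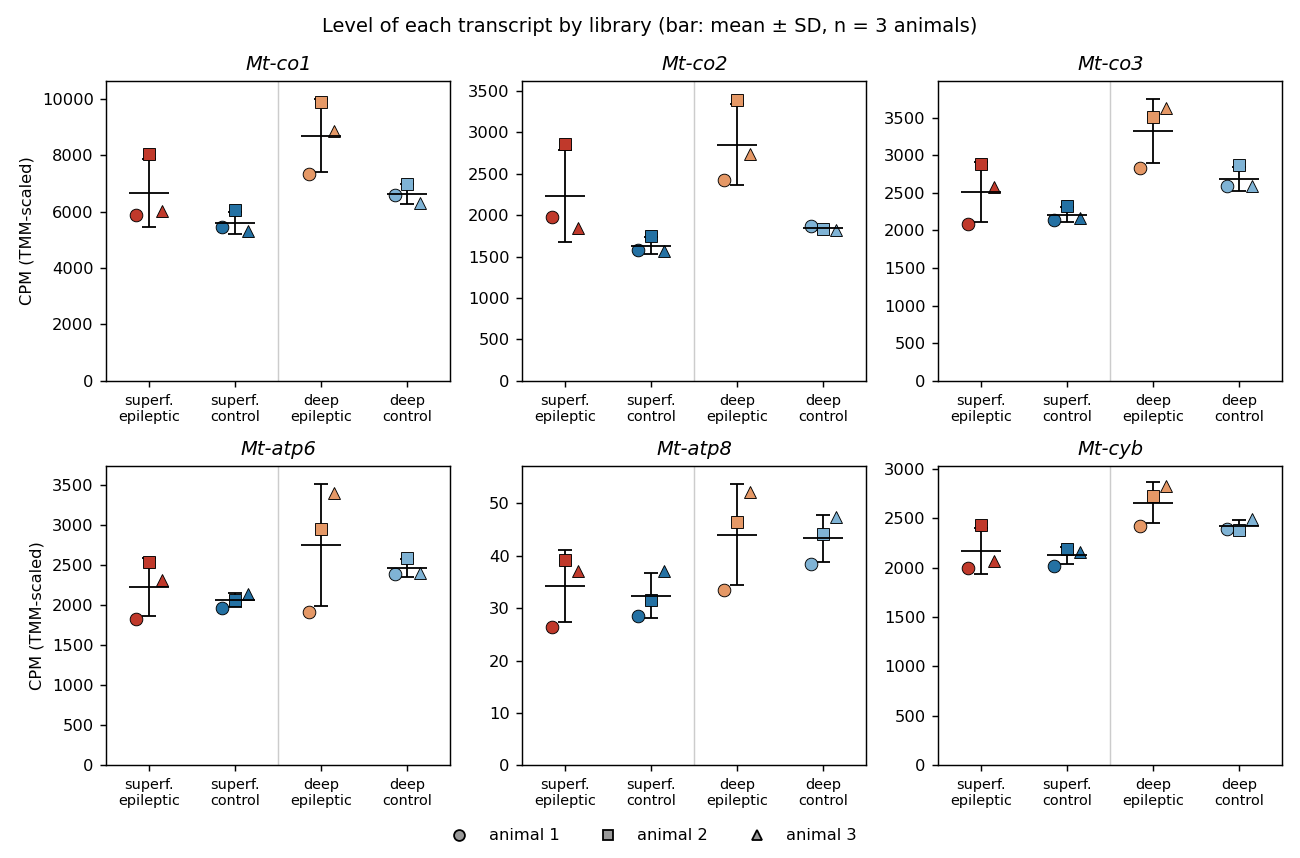
TMM-scaled CPM (y axis, from 0) of the 6 transcripts in each library, by group (x axis), with the marker shape giving the animal and bars the mean ± SD (n = 3). Epileptic animal 2 was highest for Mt-co1 and Mt-co2 in both sublayers, and Mt-atp8 sat between 26.4 and 52.2 CPM.

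All 6 transcripts were lower in superficial CA1 in all 6 animals, as were 10.5% of all identifiers. The median over the 6 genes was −0.308, −0.242 and −0.522 in epileptic animals 1, 2 and 3, and −0.275, −0.254 and −0.232 in control animals 1, 2 and 3 (log2 CPM, superficial minus deep). Epileptic animal 3 stood apart, with all 6 members between −0.566 and −0.448. Its difference was the most negative of the 6 animals for every member, with no animal's median over all identifiers above 0.0158.

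**Figure D2:**
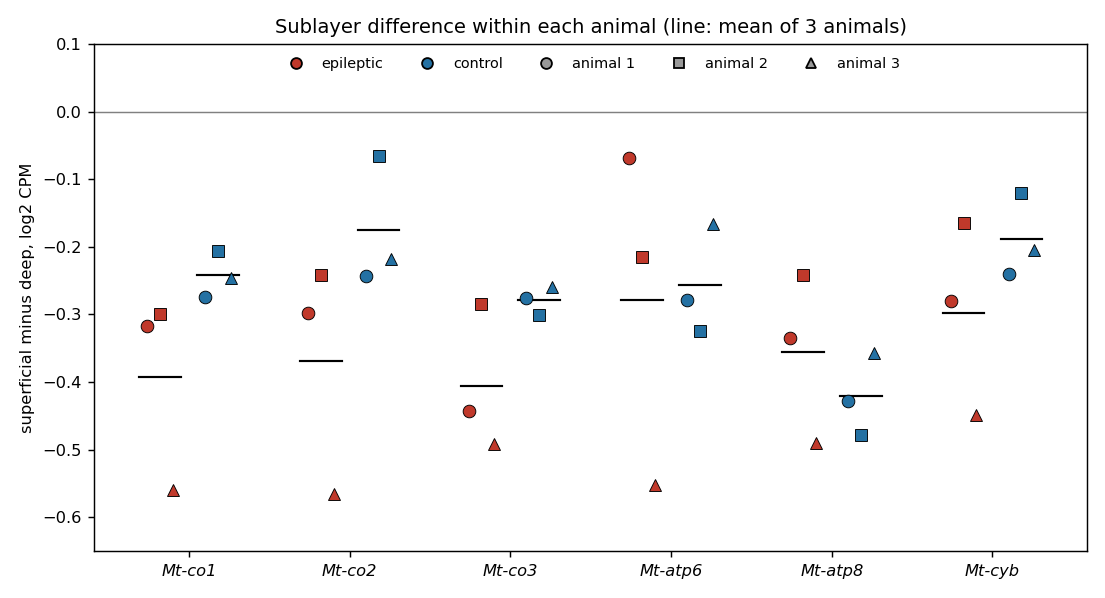
Difference between the superficial and deep library of each animal (y axis, log2 CPM) for the 6 transcripts (x axis), epileptic animals in red to the left of control animals in blue, with a line at the mean of 3. Every point lies below 0, from −0.0651 (Mt-co2, control animal 2) to −0.566 (Mt-co2, epileptic animal 3).

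As a share of gene counts, the 6 transcripts together held 1.44, 1.78 and 1.42% in superficial CA1 of epileptic animals 1 to 3, against 1.69, 2.01 and 1.92% in deep CA1. In control animals they held 1.41, 1.51 and 1.41% in superficial and 1.66, 1.71 and 1.63% in deep CA1. The share was lower in superficial CA1 in 6 of 6 animals, with a mean difference of −0.2745 ± 0.1102 percentage points (SD, n = 6). Without the 2 most abundant other identifiers in the total, the superficial and deep means were 1.96 and 2.52% in epileptic and 1.64 and 1.97% in control rats.

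Other measures of the libraries also differed between sublayers. ENSRNOG00000043866 was lower in superficial CA1 of epileptic rats (log2 −0.46, adjusted p = 0.000800) and of control rats (log2 −0.50, adjusted p = 0.000423). So was the next most abundant identifier outside the 6 genes, ENSRNOG00000030478 (log2 −0.25, adjusted p = 0.0141, and log2 −0.27, adjusted p = 0.00856). Without symbols, whether either of them is mitochondrial RNA was not examined. Alignments outside exons were lower in superficial CA1 in 5 of 6 animals (mean −2.17 ± 3.05 percentage points). Alignments that were not unique were higher there in 5 of 6 (3.06 ± 3.37 points). Their part in the members' difference was not tested, and reads shared with nuclear copies of mitochondrial DNA would fall among those not unique.

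The number of calls depended on the fit, for the members and over the whole table. Without a term for the animal, 0 of 6 members were called in either condition, and 0.0203% of identifiers were called lower in epileptic and 0.0135% in control rats. In control rats, 1 member remained called without control animal 1 (Mt-atp8), against 1.37% of identifiers called lower. Mt-co3 and Mt-atp8 remained called without control animal 2, against 1.69%, or animal 3, against 1.42%. In epileptic rats 5 to 6 members were called with 1 animal left out, against 1.84 to 6.93%. With limma-voom, calls in control rats were limited to Mt-co3 and Mt-atp8, against 2.33% of identifiers. With library totals in place of TMM, Mt-cyb was also not called in control rats (adjusted p = 0.0624), nor Mt-atp6 in epileptic rats (adjusted p = 0.0533). All 6 differences remained negative in both conditions under the alternatives run.

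Whether the sublayer difference itself changed with epilepsy was tested in the same model. Of the 6 members, 0 passed, against 0% of identifiers. At an unadjusted p below 0.05, 1 of 6 was more negative in epileptic rats, against 2.56% of all identifiers. That member was Mt-co2, at log2 −0.37 in epileptic and −0.18 in control rats (difference −0.19, SE 0.09, adjusted p = 0.742). The other members differed by −0.15 (Mt-co1), −0.13 (Mt-co3), −0.11 (Mt-cyb), −0.02 (Mt-atp6) and 0.07 (Mt-atp8). Without epileptic animal 3 the differences were −0.093 (Mt-co2), −0.064 (Mt-co1), −0.083 (Mt-co3), −0.032 (Mt-cyb), 0.117 (Mt-atp6) and 0.138 (Mt-atp8). Mt-co2 was at −0.227 without epileptic animal 1 and −0.255 without animal 2. Over the table, 976 identifiers had an unadjusted p below 0.05. DESeq2 called 0 of 6 members and 2 identifiers in all. These p-values do not show that the difference was equal in both conditions.

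Epilepsy was then examined within each sublayer, 3 rats against 3. The fitted level of all 6 transcripts was higher in epileptic rats in both sublayers, but 0 of 6 passed edgeR's test in superficial CA1, against 0.0140% of identifiers, and 0 of 6 in deep CA1, against 0%. At an unadjusted p below 0.05, 1 of 6 was higher in superficial CA1, against 10.2% of identifiers, and 3 of 6 in deep CA1, against 8.22%. These were Mt-co2 in superficial CA1, and Mt-co1, Mt-co2 and Mt-co3, the complex IV subunits, in deep CA1. The members' median log2 change was 0.17 in superficial and 0.24 in deep CA1, beside 0.007 and 0.001 over all identifiers. These p-values set the change against the spread between rats of the same condition. That spread was estimated over both conditions together, with information shared across identifiers.

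Mt-co2 differed most. In superficial CA1 it averaged 2227 ± 553 CPM in epileptic and 1632 ± 103 CPM in control rats (SD, n = 3 each), a log2 change of 0.47 (SE 0.16, adjusted p = 0.215 in edgeR). In deep CA1 it averaged 2848 ± 489 CPM in epileptic and 1841 ± 22.01 CPM in control rats, a log2 change of 0.63 (SE 0.13, adjusted p = 0.121). In both sublayers each epileptic library lay above each control library. So did those of 10.3% of identifiers in superficial and 8.88% in deep CA1, and of 1 of 6 members in superficial and 2 of 6 in deep CA1.

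Whether deep Mt-co2 was called depended on the fit. It was called neither in the main fit nor in 9 of 14 alternatives. With the replicate number as a block Mt-co2 was called (log2 0.62, adjusted p = 0.0325 in edgeR), beside 1.16% of identifiers called higher. Control and epileptic libraries of 1 number are different animals, and their deviations correlated only weakly in deep CA1 (r = 0.104 to 0.244). Mt-co2 was also called by DESeq2 (adjusted p = 0.000273), where 1.75% of identifiers were called higher. In edgeR it was called with no filter on low counts (adjusted p = 0.0321), beside 0.291% of identifiers called higher. The same held without epileptic animal 1 (0.0162, beside 2.74%) or animal 3 (0.0270, beside 1.24%). In the main fit 0% of identifiers were called. Its log2 change was 0.46 to 0.74 over 14 alternatives, with adjusted p-values of 0.000273 to 0.508. In superficial CA1, DESeq2 called Mt-co2 (adjusted p = 0.0497), where 3.68% of identifiers were called higher. Without epileptic animal 2 its log2 change there was 0.25 (adjusted p = 0.382 in edgeR).

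Mt-co1 averaged 6643 ± 1206 CPM in epileptic and 5602 ± 393 CPM in control superficial CA1, where the groups overlapped (log2 0.26, SE 0.14, adjusted p = 0.336 in edgeR). In deep CA1 it averaged 8692 ± 1286 CPM in epileptic and 6620 ± 344 CPM in control rats (log2 0.40, SE 0.12, adjusted p = 0.243). There the lowest epileptic library, at 7330 CPM, lay above the highest control library, at 6975 CPM. For Mt-co3 the log2 change was 0.20 (SE 0.13, adjusted p = 0.416) in superficial and 0.31 (SE 0.12, adjusted p = 0.295) in deep CA1, and both comparisons overlapped. Without epileptic animal 2, the superficial values were 0.11 for Mt-co1 and 0.099 for Mt-co3.

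The ATP synthase and complex III members had smaller fitted changes. Mt-atp6 changed by log2 0.13 (SE 0.13) in superficial and 0.16 (SE 0.18) in deep CA1. Its deep level in epileptic animal 1, at 1912 CPM, was below all 3 deep control libraries, while animals 2 and 3 were above them. Mt-atp8 had values of 0.10 (SE 0.17) in superficial and 0.03 (SE 0.16) in deep CA1, and Mt-cyb of 0.05 (SE 0.11) and 0.14 (SE 0.09). Adjusted p-values of these 3 genes were 0.550 to 0.965 in edgeR, and epileptic and control libraries overlapped in both sublayers.

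**Figure D3:**
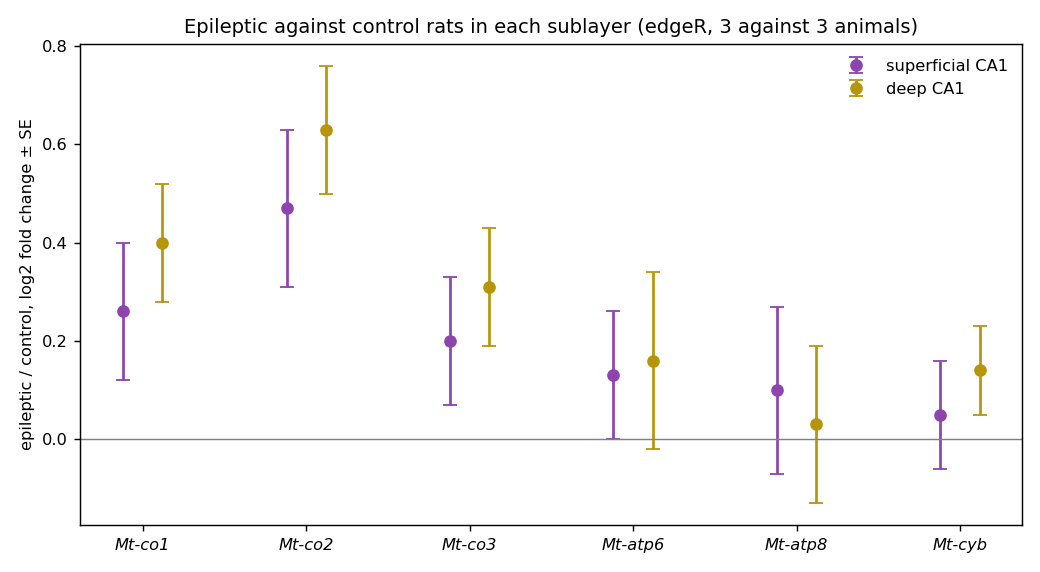
Log2 fold change of epileptic over control rats (y axis; points, edgeR estimate; bars, ± SE) for each transcript (x axis) in superficial and deep CA1, 3 against 3 animals. Mt-co2 is highest in both sublayers, at 0.47 and 0.63, and Mt-atp8 in deep CA1 is nearest to 0, at 0.03.

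The sign of the smaller changes depended on the scaling. With library totals and no TMM scaling, the median of all identifiers moved to −0.115 in superficial and −0.160 in deep CA1. On that scale Mt-atp8 and Mt-cyb turned negative in superficial CA1 (−0.031 and −0.079), and Mt-atp6, Mt-atp8 and Mt-cyb in deep CA1 (−0.013, −0.148 and −0.028). Each of these values lay above the shifted median of its sublayer, deep Mt-atp8 only narrowly (−0.148 against −0.160). Mt-co1, Mt-co2 and Mt-co3 stayed positive on both scales. Single animals decided the sign too: without epileptic animal 2, superficial Mt-atp8 was at −0.002 and Mt-cyb at −0.042. Deep Mt-atp6 was at −0.016 without epileptic animal 3, and deep Mt-atp8 at −0.015, −0.115 and −0.056 without epileptic animal 2, epileptic animal 3 or control animal 1.

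Library composition moved with condition as well. ENSRNOG00000043866 was higher in epileptic rats, at 16.2 ± 4.55% of gene counts against 8.65 ± 0.622% in control superficial CA1, and 20.7 ± 3.51% against 11.99 ± 0.886% in control deep CA1 (SD, n = 3 each). Its log2 change was 1.05 in superficial and 0.96 in deep CA1 (adjusted p = 0.126 and 0.103 in edgeR). When the percentage of alignments falling outside exons was added to the fit, an alternative chosen after the data were seen, the deep change was 0.17 for Mt-co1 and 0.46 for Mt-co2 (adjusted p = 0.606 and 0.205). The superficial change was then 0.023 for Mt-co1 and 0.23 for Mt-co2 (adjusted p = 0.999 and 0.986). This share differs between conditions, so its part and that of epilepsy cannot be told apart in 6 libraries.

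Epileptic animals also varied more among themselves. The SD of log2 CPM was larger among epileptic than among control rats in both sublayers for 6 of 6 members, and for 52.9% of all identifiers. For Mt-co2 it was 0.243 in epileptic and 0.0172 in control deep CA1, and for Mt-atp6 0.432 and 0.0654. The share outside exons, given above, also set epileptic animal 1 apart from animals 2 and 3, and its part in this spread was not tested. Without epileptic animal 1, 1 of 6 members was called in superficial CA1 (Mt-co3), where 5.71% of identifiers were called higher. In deep CA1 3 of 6 were called (Mt-co1, Mt-co2 and Mt-co3), where 2.74% of identifiers were called higher.

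Shares within the 6 genes do not depend on library scaling. Of their summed counts, Mt-co2 held 14.3, 15.2 and 12.4% in superficial CA1 of epileptic animals 1 to 3, against 11.95, 12.2 and 11.7% in control animals. In deep CA1 it held 14.3, 15.1 and 12.7% in epileptic and 11.8, 11.0 and 11.7% in control animals. The epileptic libraries did not overlap the control libraries in either sublayer. Animal 3, the lowest of the epileptic rats, was close to the controls in superficial CA1.

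The share of Mt-cyb went the other way. It was 13.8 ± 0.770% in epileptic and 15.5 ± 0.528% in control superficial CA1 (SD, n = 3 each), without overlap. In deep CA1 it was 13.2 ± 1.08% in epileptic and 15.1 ± 0.829% in control rats, where 1 epileptic library at 14.28% touched the lowest control library at 14.25%. Mt-atp6 held 14.1 ± 1.29% in epileptic and 15.1 ± 0.843% in control superficial CA1, and 13.4 ± 2.28% and 15.3 ± 0.243% in deep CA1, both overlapping. Mt-co1 held 41.0 to 42.8% and Mt-co3 15.9 to 16.7% on average in all 4 groups. These shares sum to a fixed total, so a higher share of one gene lowers the others, and they were not tested.

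**Figure D4:**
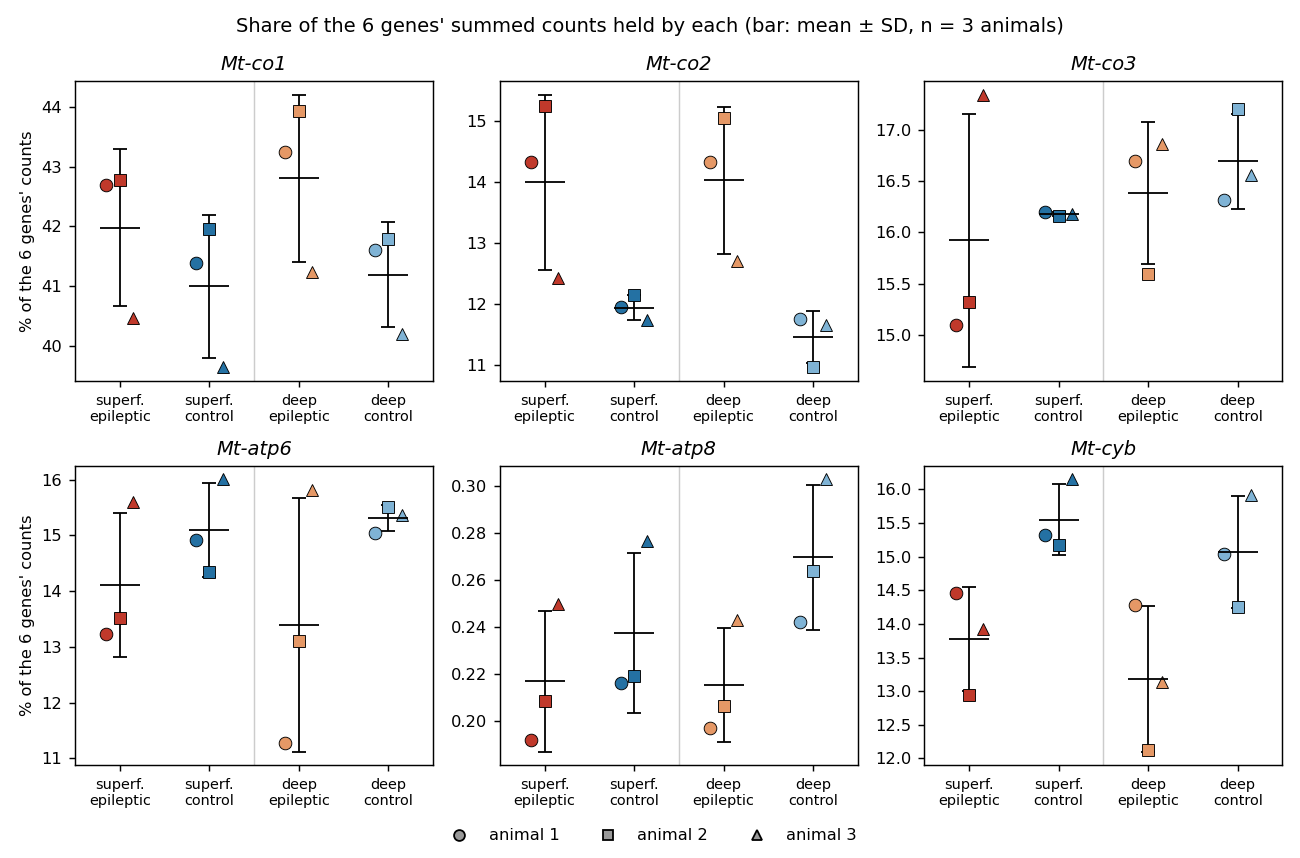
Share of the 6 genes' summed counts held by each (y axis, %, not starting at 0) by group (x axis), with the marker shape giving the animal and bars the mean ± SD (n = 3). The Mt-co2 share lies at 12.4 to 15.2% in epileptic and 11.0 to 12.2% in control libraries.

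Ratios of Mt-co2 to single members were formed after these values were seen and are given without a test. Per 100 counts of Mt-cyb, Mt-co2 had 99.1, 118 and 89.2 counts in superficial CA1 of epileptic animals 1 to 3, against 78.0, 80.0 and 72.7 in control animals. In deep CA1 it had 100.3, 124 and 96.8 counts in epileptic and 78.2, 77.0 and 73.3 in control animals. The conditions did not overlap in either sublayer. The same held per 100 counts of Mt-co1, with 33.3 ± 2.47 in epileptic and 29.1 ± 0.397 in control superficial CA1, and 32.7 ± 1.74 and 27.8 ± 1.43 in deep CA1. Against Mt-co3 and Mt-atp6 the conditions overlapped in superficial CA1 but not in deep CA1.

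**Figure D5:**
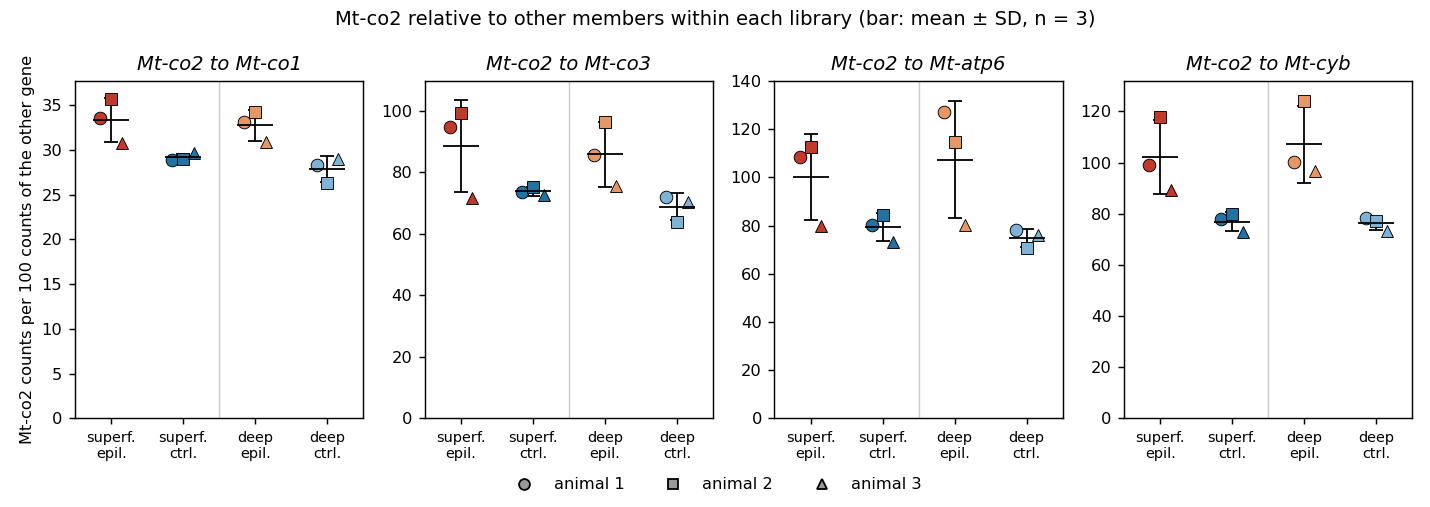
Mt-co2 counts per 100 counts of Mt-co1, Mt-co3, Mt-atp6 or Mt-cyb (y axes, from 0, different scales) by group (x axis). Circles, squares and triangles are animals 1, 2 and 3 and bars the mean ± SD (n = 3); per 100 Mt-cyb counts, epileptic libraries lie at 89.2 to 124 and control libraries at 72.7 to 80.0.

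Across the 12 libraries, which share 6 animals, the log2 CPM of member pairs correlated at r = 0.463 (Mt-co2 with Mt-atp8) to 0.948 (Mt-co1 with Mt-co2) over 15 pairs. Mt-atp6 and Mt-atp8, which share sequence, correlated at 0.908. Among 9390 other identifiers of mean log2 CPM 3 or more, those most like the members' mean were ENSRNOG00000031033 (r = 0.950) and ENSRNOG00000031053 (r = 0.940). Those most opposite were ENSRNOG00000032048 (r = −0.967) and ENSRNOG00000008061 (r = −0.947). ENSRNOG00000031033 averaged 1355 ± 228 CPM in epileptic and 1202 ± 83.6 CPM in control superficial CA1, and 1692 ± 314 and 1501 ± 67.6 CPM in deep CA1. ENSRNOG00000032048 ran opposite, at 132 ± 18.3 CPM in epileptic and 158 ± 5.44 CPM in control superficial CA1, and 103 ± 14.3 and 121 ± 5.85 CPM in deep CA1.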

How the data were processed

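RNA of 12 libraries was analysed from the raw counts per gene that the authors deposited, 1 table per library. Rnor_6.0 is the genome build in the submitters' processing notes, which list HTSeq 0.6.1, SAMtools 0.1.19, STAR 2.5.0c and FastQC 0.11.3 as tools. Aligner settings, strand use and counting mode are not given in the sources used here. The 5 summary tallies of each table entered neither library sizes nor tests, and genes held 28.6 to 35.1% of all tallied alignments.

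Identifiers that passed filterByExpr of edgeR 4.0.16 (in R 4.3.3, with a minimum count of 10 and a minimum total of 15) were scaled by TMM and tested with edgeR's robust quasi-likelihood test, with Benjamini-Hochberg adjustment over all identifiers tested and a threshold of 0.05. The sublayer model had animal terms and all 12 libraries. The epilepsy fits took the 6 libraries of a sublayer. The printed SE is the absolute log2 change divided by the square root of the F statistic, an approximation. CPM use TMM sizes over the 12 libraries, and log2 CPM a prior count of 2. The tests of epilepsy in deep CA1 and of the sublayers in epileptic rats were tested on simulated data. Those data had a common spread for all identifiers and no animal effects, so they do not show the tests' error rates in these libraries. Alternatives used limma 3.58.1 and DESeq2 1.42.0.

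Deep and superficial libraries of 1 number deviated together in all 6 animals (r = 0.316 to 0.770). The labels' protocols describe both sublayers as cut from each brain. Control and epileptic libraries of 1 number are different animals. Numbers 1, 2 and 3 gave r = 0.218, 0.104 and 0.244 for deep CA1, and 0.212, 0.003 and 0.170 for superficial CA1. The number as a block is given as an alternative in both sublayers. Chi-square per identifier between replicates was at least 7.01, so no library was counted as a duplicate.

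The 6 members, the lists and the tests were chosen with earlier results of these data known. All 6 members are named, with the 2 identifiers of highest and the 2 of lowest correlation with their mean and the 2 most abundant other identifiers. As the reference gave a symbol to 0 of 32662 identifiers, the lists of nuclear subunits, other mitochondrial genes and cell type markers were not analysed here. The sequences of the 6 genes were not used here.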

Additional observations from a re-analysis of the deposited data

How the results depend on the processing

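Of 414 values of single members under alternatives, 348 kept direction and side of the threshold, 33 lost and 13 gained a call, and 20 changed sign. Causes were not tested.

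Members called are given beside the share of identifiers called in the same direction. For epilepsy in superficial CA1 it was 1 with DESeq2 (3.68%) and 0 to 1 with an animal left out (0 to 5.71%). In deep CA1 it was 1 with no filter (0.291%), 1 with DESeq2 (1.75%), 1 with the replicate block (1.16%) and 0 to 3 with an animal left out (0 to 2.74%). For the sublayer difference in epileptic rats it was 0 without the animal term (0.0203%). In control rats it was 0 without that term (0.0135%), 2 with limma-voom and the animal as a random effect (2.33%), and 1 to 6 with an animal left out (1.37 to 6.82%). Mt-co2 passed in control rats with no filter, in control libraries alone, and without epileptic animal 1 or 3. With an animal left out, the spread was taken from the remaining animals.

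The replicate block made Mt-co2 pass in deep CA1 (adjusted p = 0.0325) and gave 239 identifiers called, against 0 without it. In superficial CA1, 0 members and 25 identifiers were called with it, against 2 identifiers without it. It changed no other member's call.

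Sign changes were all in values that did not pass the test. With library totals, they were −0.031 (Mt-atp8) and −0.079 (Mt-cyb) in superficial CA1, −0.013 (Mt-atp6), −0.148 (Mt-atp8) and −0.028 (Mt-cyb) in deep CA1, and 0.034 for the interaction of Mt-atp6. With the percentage outside exons added to the fit, superficial values were −0.120 (Mt-co3), −0.186 (Mt-atp6), −0.302 (Mt-atp8) and −0.115 (Mt-cyb), and deep values −0.356 (Mt-atp6) and −0.366 (Mt-atp8). With an animal left out, superficial Mt-atp8 ranged from −0.002 to 0.269 and Mt-cyb from −0.042 to 0.113, deep Mt-atp6 from −0.016 to 0.377 and Mt-atp8 from −0.115 to 0.198, and the interaction of Mt-atp6 from −0.125 to 0.117.

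The summed shares without the 2 most abundant identifiers were 1.958% (epileptic) and 1.635% (control) in superficial and 2.524% and 1.974% in deep CA1. Identifiers called over the whole table ranged from 0 to 1443 for epilepsy in superficial CA1, 0 to 552 in deep CA1, 5 to 2621 for the sublayer difference in epileptic and 5 to 2375 in control rats, and 0 to 178 for the interaction. Depth limits Mt-atp8 most, with 569 to 968 counts per library.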
